A study of Mus musculus with 10 samples.

Results

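Transcripts of 9 genes that work with MLL fusion proteins on chromatin were followed in mouse MLL-AF9 leukaemia with and without Polycomb repressive complex PRC2. The genes were Dot1l, Men1, Psip1, Mllt1, Mllt10, Aff1, Aff4, Ash2l and Wdr5. They were chosen by name, and every probe set of the array that carried 1 of these symbols was taken, whatever its level. This gave 25 of the 37762 probe sets with a single symbol, and 9 of 20564 genes. Men1, Aff1 and Aff4 had 3 probe sets each, Psip1 and Mllt10 had 4, and Dot1l, Mllt1, Ash2l and Wdr5 had 2. All 25 were tested, with no filter on dim signals.

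The leukaemias arose from C57B/6 cells that carried a retrovirus with MLL-AF9 and, after an ires, GFP. Recipients of the same background, irradiated with 600 cGy, were injected with 100000 cells of replated leukaemic colonies, and Cre was switched on with pIpC 2 to 3 weeks after transplantation. RNA came from live bone marrow cells sorted for GFP and for YFP, a reporter of Cre activity, and was hybridised for 3 WT, 4 Ezh2-null and 3 Eed-null samples. WT cells were sorted by the same reporters and therefore shared the fusion gene, the pIpC treatment and the active Cre. The promoter that drove Cre, the ages of the mice and any sharing of donors between arrays are not given in the sources used here, so p-values measure the spread between these samples. Ezh2 is a catalytic subunit of PRC2 and Eed is a core subunit, so the groups ask whether the cofactors of the fusion protein are expressed at the same level when PRC2 is damaged.

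MLL, the product of Kmt2a, is a histone methyltransferase that keeps Hox genes active in blood progenitors. In a fusion such as MLL-AF9 its amino-terminal part is kept, and with it the contact to menin and, through menin, to the chromatin tether encoded by Psip1. The carboxy-terminal part, which assembles with Wdr5 and Ash2l, is replaced by a partner such as AF9, which recruits Dot1l and elongation factors of the Aff family to the target genes.

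All values are log2 intensities, and a difference of 1 on this scale is a doubling. The median over the tested probe sets lay between 7.22 and 7.29 on every array. Of the markers fixed for granulocytes and their progenitors 6 of 6, and of those for monocytes 4 of 4, lay above the mean of all probe sets, while 0 of 5 T and NK cell markers did. Of the stem and progenitor markers, 4 of 4 lay above that mean. For other lineages the counts were 2 of 4 for B cells, 2 of 5 for stromal and endothelial cells, 1 of 5 for erythroid cells and 1 of 3 for megakaryocytes. Eed itself was lower by design and read 8.69, 8.34 and 8.67 in Eed-null replicates 1 to 3 against 10.20 to 10.65 in WT, a difference of -1.89 (limma, SE 0.20, adjusted p = 0.0100). Ezh2 read 10.25, 9.35 and 10.44 in WT and 8.91 to 9.36 in Ezh2-null, which puts WT replicate 2 among the Ezh2-null arrays for the gene that defines that group. The difference of -0.84 in Ezh2 did not pass (limma, SE 0.25, adjusted p = 1.00). A second Eed probe set differed by 0.28 in Eed-null against WT (limma, SE 0.16, adjusted p = 0.568). Whether any of these probe sets lie in the deleted exons is unknown here. The leading principal component (27.9% of the variance) had at its ends WT replicate 3 at -58.5 and Eed-null replicate 1 at 90.9. WT replicate 3 had a mean level of granulocyte genes of 10.91 against 11.90 to 12.49 on the other arrays. In sorted bulk samples, fewer cells of a type and less RNA per cell cannot be told apart.

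No probe set of the 9 genes passed the test in any comparison of genotypes. At an adjusted p under 0.05, 0 of the 25 probe sets passed in Ezh2-null against WT, where 0.0265% of all probe sets passed. In Eed-null against WT 0 of 25 passed beside 0.114% of all, and in Eed-null against Ezh2-null 0 of 25 beside 0.0662% (limma, Benjamini-Hochberg over 37762 probe sets). With so few calls on the whole array, a count of 0 among 25 was near the background. An unadjusted p under 0.05 was reached by 1, 2 and 1 of the 25 in these comparisons (limma), beside 3.86%, 10.8% and 9.43% of all probe sets. These were Mllt10 1442070_at in both comparisons with WT and Wdr5 1416581_at in both comparisons of Eed-null. The groups did not overlap for 2, 2 and 0 of the 25, beside 5.29%, 13.2% and 10.7%. These were Mllt10 1442070_at in both comparisons with WT, Men1 1416347_at in Ezh2-null and Ash2l 1420615_at in Eed-null.

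The intervals say how large a change could have been missed. The 95% interval of the difference reached from 0.36 to 0.82 to either side of the estimate in Ezh2-null against WT and from 0.39 to 0.88 in Eed-null against WT. A doubling or a halving lay outside the interval for 20 of the 25 probe sets in Ezh2-null against WT, for 18 in Eed-null against WT and for 22 in Eed-null against Ezh2-null. Over all probe sets the same held for 84.8%, 76.1% and 81.0%. The median size of the difference, regardless of sign, was 0.19, 0.16 and 0.19 for the members and 0.12, 0.18 and 0.16 for all probe sets. The spread between arrays of a group had a median SD of 0.31 for the 25 and 0.25 for all, and a range from 0.15 for Dot1l 1457268_at to 0.56 for Ash2l 1420616_at. Of the differences, 15, 11 and 13 of 25 were positive, beside 45.9%, 53.3% and 55.7% of all probe sets.

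**Figure D1:**
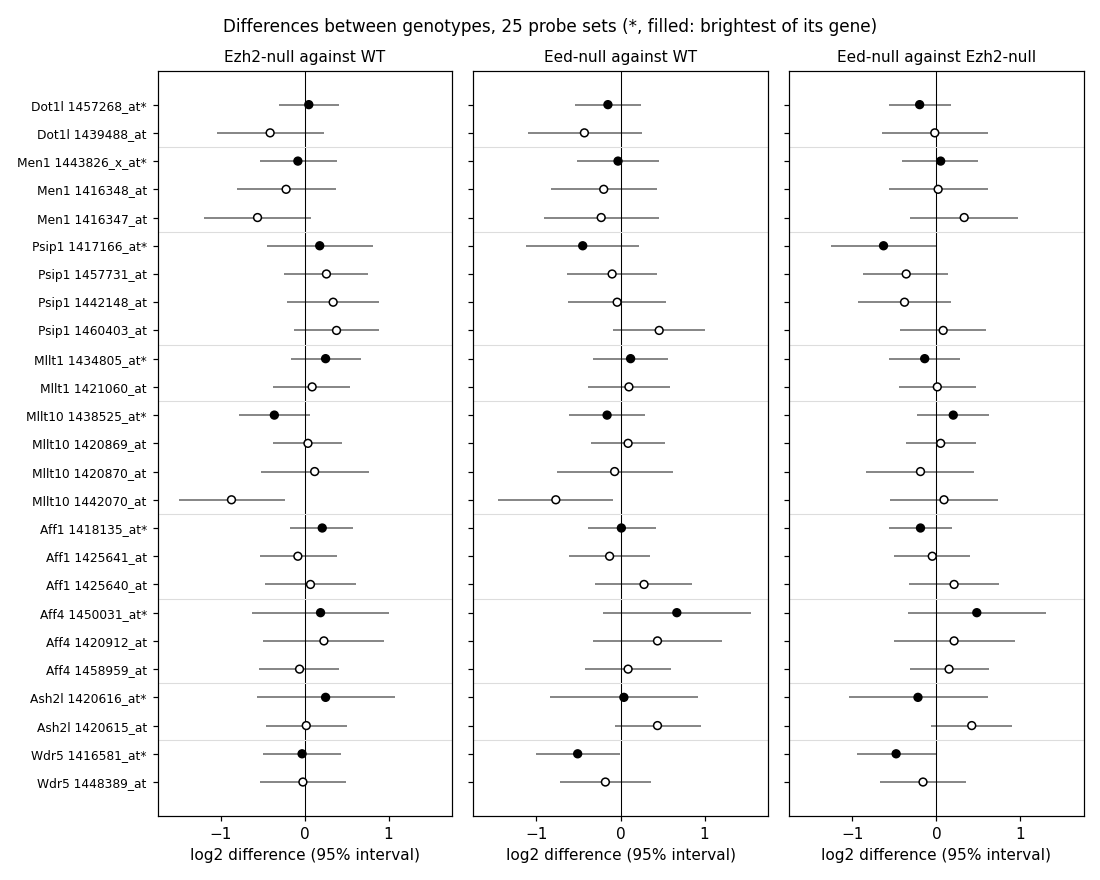
Log2 differences between genotypes (points) with their 95% intervals (lines) for the 25 probe sets in the 3 comparisons. Filled points and asterisks mark the brightest probe set of a gene. All intervals include 0 except Mllt10 1442070_at in both comparisons with WT and Wdr5 1416581_at in both comparisons of Eed-null, and none of these passed after adjustment.

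The promoters of the members were read from RefSeq (GRCm38.p6), in windows from 250 bases before to 50 after each annotated start. They are shown because Polycomb and MLL complexes are both known to act at promoters rich in CpG, the letters CG, which read the same on both strands. For 7 of the 9 genes 12 windows matched, with no window for Psip1 and Ash2l used here. They held a median of 22 CpG against 7 over all 32851 windows, of which 94.6% hold at least 1, and 10 of the 12 lay above that median. Windows of Men1, of Mllt10 and of Aff1 overlap or neighbour each other, so the 12 are not independent. Dot1l had the highest count, with 49 CpG at chr10:80754953-80755252 on the plus strand, and 99.0% of all windows have fewer. Mllt10 had the lowest, with 6 at chr2:18055478-18055777 on the plus strand, although another annotated start of the same gene, at chr2:18064335-18064634, had 43. Both extremes are printed 5′ to 3′ with each CpG in capitals.
Dot1l: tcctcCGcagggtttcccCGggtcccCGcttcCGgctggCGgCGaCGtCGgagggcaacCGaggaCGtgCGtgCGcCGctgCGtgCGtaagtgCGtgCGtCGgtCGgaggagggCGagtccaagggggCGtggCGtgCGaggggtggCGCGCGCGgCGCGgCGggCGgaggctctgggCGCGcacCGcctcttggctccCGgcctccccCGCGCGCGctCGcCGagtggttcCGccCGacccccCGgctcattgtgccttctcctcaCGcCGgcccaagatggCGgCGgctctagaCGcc
Mllt10: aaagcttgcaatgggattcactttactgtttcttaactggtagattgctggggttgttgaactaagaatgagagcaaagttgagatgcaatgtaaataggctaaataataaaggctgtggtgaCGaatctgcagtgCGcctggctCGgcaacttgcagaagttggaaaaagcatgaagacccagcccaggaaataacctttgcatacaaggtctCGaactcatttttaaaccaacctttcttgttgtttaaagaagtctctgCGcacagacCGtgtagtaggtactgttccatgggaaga
The arrays do not tell which start of Mllt10 was used, and expression of a gene with many or few CpG was not compared.

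Menin, encoded by Men1, holds the amino-terminal part of MLL and of its fusions to chromatin, and Psip1 encodes LEDGF, the protein that anchors menin and MLL to transcribed genes. The brightest Men1 probe set, 1443826_x_at, read 8.41, 9.29 and 8.58 in the WT arrays, 8.61, 8.68, 8.66 and 8.77 in those without Ezh2 and 8.77, 8.70 and 8.71 in those without Eed. WT replicate 2 was the highest of the 10 arrays, and the null arrays lay within the WT range. The differences from WT were -0.08 (SE 0.21) for Ezh2-null and -0.03 (SE 0.22) for Eed-null (limma, adjusted p = 1.00 and 0.974). The ending x marks a probe set whose probes may also bind other transcripts, and it tracked the other Men1 probe sets weakly, with r = 0.24 and 0.20 over the 10 arrays. Those other probe sets, 1416348_at and 1416347_at, moved together at r = 0.73.

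Men1 1416347_at, dimmer than the others, read 7.48, 7.56 and 7.28 in WT and 7.09, 6.14, 7.27 and 7.02 in Ezh2-null, and the groups did not overlap. Ezh2-null replicate 2 was the lowest, and the nearest arrays of the 2 groups almost met, at 7.28 and 7.27. The difference was -0.56 (limma, SE 0.29, adjusted p = 1.00). It was 1 of 2 member probe sets without overlap in that comparison, both lower in Ezh2-null, beside 5.29% of all probe sets. Eed-null arrays read 7.62, 7.33 and 6.68, on either side of the WT range, with a difference of -0.23 (SE 0.31). Men1 1416348_at differed by -0.22 (SE 0.27) in Ezh2-null and -0.20 (SE 0.28) in Eed-null against WT.

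The brightest Psip1 probe set, 1417166_at, read 9.25, 8.34 and 9.08 in WT and 9.25, 8.88, 9.15 and 9.0 in Ezh2-null. In Eed-null it read 8.09, 9.06 and 8.16. Replicates 1 and 3 of Eed-null and replicate 2 of WT were the 3 lowest arrays, while the other 7 lay between 8.88 and 9.25. Eed-null differed by -0.45 from WT (SE 0.30) and by -0.63 from Ezh2-null (SE 0.28), and neither passed (limma, adjusted p = 0.635 and 0.531). Without WT replicate 2 the first difference was -0.72, and without Eed-null replicate 2 the differences were -0.76 and -0.94, still not past the threshold (limma, adjusted p = 0.412, 0.289 and 0.265). With single arrays left out in turn, the differences ran from -0.76 to -0.27 and from -0.94 to -0.46. The weakest values over all processing alternatives, -0.03 and -0.32, came with the mean of all 4 Psip1 probe sets, not from 1417166_at alone.

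The other 3 Psip1 probe sets gave smaller or opposite differences in Eed-null against WT. Probe set 1457731_at differed by -0.10 (SE 0.24), 1442148_at by -0.04 (SE 0.26) and 1460403_at by 0.46 (SE 0.25) in Eed-null against WT. The last had the opposite sign to the brightest. Against Ezh2-null, Eed-null differed by -0.36 (SE 0.23), -0.38 (SE 0.25) and 0.08 (SE 0.23) in the same order. Correlations with the brightest over the arrays were 0.21, 0.71 and 0.35. In Ezh2-null against WT all 4 differences were positive, from 0.18 to 0.38, and none passed (limma, adjusted p = 1.00 for each). Psip1 is known to give a long and a short protein isoform, of which the long form contacts menin. Which transcripts each probe set reads is not given in the sources used here.

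Dot1l is the methyltransferase for the lysine of histone H3 that marks transcribed MLL fusion targets, and Mllt10 (AF10) is its cofactor. Mllt1 (ENL) is a relative of AF9 that reads acetylated histones and binds both the Dot1l and the elongation complexes. The brightest Dot1l probe set, 1457268_at, was the steadiest of the 25 and read 8.81, 8.79 and 8.95 in WT. Ezh2-null arrays read 8.79, 9.12, 8.68 and 9.01 and Eed-null arrays 8.56, 8.74 and 8.81. All 3 groups overlapped, and the differences from WT were 0.05 (SE 0.16) for Ezh2-null and -0.15 (SE 0.18) for Eed-null (limma, adjusted p = 1.00 and 0.804). Their 95% intervals ran from -0.31 to 0.41 and from -0.54 to 0.24. The second Dot1l probe set, 1439488_at, read 9.44 in WT replicate 2 and 8.09 to 8.86 on the other 9 arrays. Its differences of -0.41 (SE 0.29) and -0.43 (SE 0.30) from WT were -0.08 and -0.10 without that array.

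Mllt1 1434805_at read 7.67, 8.02 and 8.20 in the WT arrays, 7.92, 8.54, 8.29 and 8.11 in those without Ezh2 and 8.06, 8.06 and 8.12 in those without Eed. The 3 Eed-null arrays sat close together inside the WT range. Differences from WT were 0.25 (SE 0.19) in Ezh2-null and 0.12 (SE 0.20) in Eed-null (limma, adjusted p = 1.00 and 0.875). The dimmer Mllt1 1421060_at, with group means of 7.01 to 7.11, was below the median of the arrays and differed by 0.09 (SE 0.21) and 0.10 (SE 0.22).

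The clearest separation of WT from the null groups among the 25 was in 1 of the 4 probe sets of Mllt10. Probe set 1442070_at read 9.02, 8.97 and 9.42 in the WT arrays, 8.65, 7.86, 8.12 and 8.46 in those without Ezh2 and 7.69, 8.74 and 8.66 in those without Eed. All 7 null arrays lay below all 3 WT arrays, with the gap between 8.74 and 8.97. The group means were 9.14 ± 0.25 (SD, n = 3) in WT, 8.27 ± 0.35 (SD, n = 4) in Ezh2-null and 8.36 ± 0.58 (SD, n = 3) in Eed-null. Ezh2-null differed by -0.87 from WT (limma, SE 0.29, adjusted p = 1.00) and Eed-null by -0.77 (limma, SE 0.31, adjusted p = 0.417). The comparisons share the WT arrays, so they are not independent. Absence of overlap was seen in 5.29% of all probe sets in the first comparison and in 13.2% in the second, where 2 of the 25 members showed it. Eed-null replicate 1 was the lowest array, and without it the Eed-null difference was -0.44 (SE 0.26).

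The 3 other Mllt10 probe sets did not separate the groups. The brightest, 1438525_at, read 10.36, 10.66 and 10.08 in the WT arrays, 9.99, 9.78, 10.31 and 9.96 in those without Ezh2 and 10.02, 10.22 and 10.38 in those without Eed, and the groups overlapped. Its differences from WT were -0.36 (SE 0.19) and -0.16 (SE 0.20). Probe set 1420869_at differed by 0.04 and 0.09 and 1420870_at by 0.12 and -0.07, each with an SE of at most 0.31. Correlations of 1442070_at with these 3 over the arrays were 0.47, 0.12 and 0.44.

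**Figure D2:**
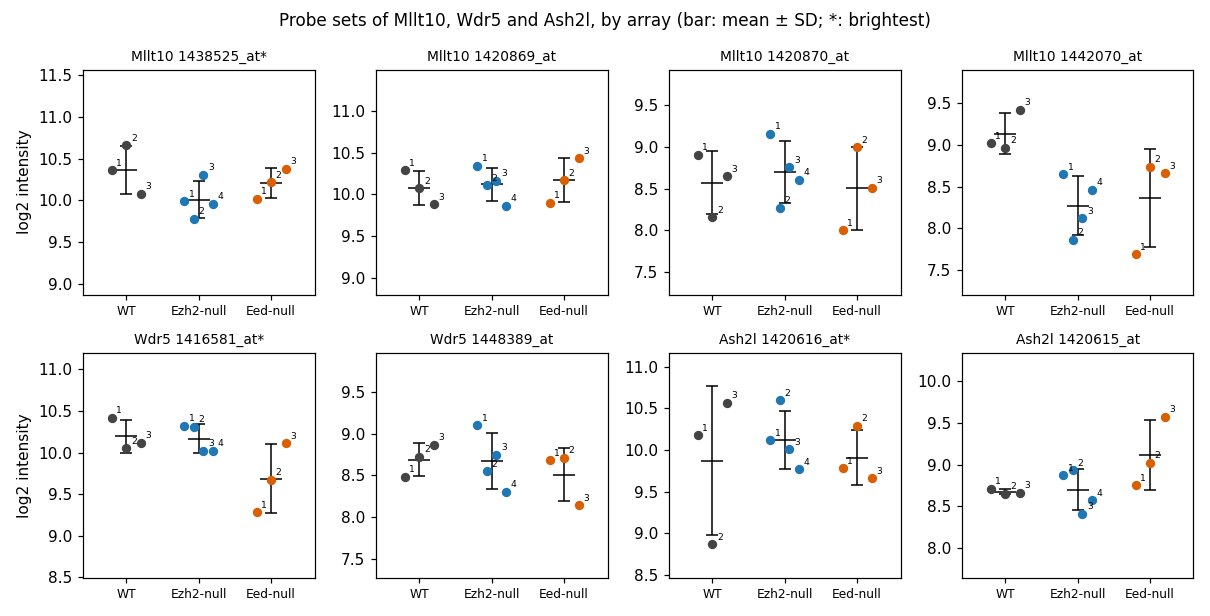
Log2 intensity of every probe set of Mllt10, Wdr5 and Ash2l by array, with replicate numbers and the mean ± SD of each group. Every panel spans the same range in log2 units. WT lies above all null arrays for Mllt10 1442070_at, whereas the groups overlap for the other Mllt10 probe sets.

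Aff1 and Aff4 are the scaffolds of elongation complexes that bring the kinase P-TEFb to RNA polymerase. Aff1 1418135_at read 10.88, 10.24 and 10.76 in the WT arrays, 10.94, 10.89, 10.68 and 10.84 in those without Ezh2 and 10.56, 10.70 and 10.67 in those without Eed. WT replicate 2 was the lowest of the 10 arrays here and in the 2 other Aff1 probe sets, at 9.43 and 8.27. The differences from WT were 0.21 (SE 0.17) for Ezh2-null and 0.01 (SE 0.18) for Eed-null (limma, adjusted p = 1.00 and 0.989). Without WT replicate 2 they were 0.01 and -0.18. Over the other probe sets, 1425641_at differed by -0.08 and -0.13 and 1425640_at by 0.07 and 0.28, and the 3 were correlated at 0.53 to 0.61 over the arrays.

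The readings of Aff4 turned on a single array, Eed-null replicate 1. Its brightest probe set, 1450031_at, gave 9.15, 8.99 and 8.85 for the WT arrays, 9.72, 9.20, 8.78 and 9.05 for the Ezh2-null arrays and 10.69, 9.05 and 9.24 for the Eed-null arrays. The same array was the highest for 1420912_at, at 8.33 against 6.68 to 7.56 on the other 9, and these probe sets were correlated at 0.88. Eed-null therefore had a mean of 9.66 ± 0.90 (SD, n = 3) for 1450031_at and a difference of 0.67 from WT (limma, SE 0.40, adjusted p = 0.583). Without Eed-null replicate 1 the difference was 0.16 (SE 0.27), and for 1420912_at it went from 0.44 to 0.02. The third Aff4 probe set, 1458959_at, with group means of 5.76 to 5.92, lay below the median of the arrays and differed by 0.09 (SE 0.23). Ezh2-null differed from WT by 0.19 (SE 0.37) for 1450031_at.

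Wdr5 and Ash2l encode core subunits shared by all MLL family methyltransferases, which Wdr5 holds together and Ash2l activates. Wdr5 1416581_at read 10.42, 10.05 and 10.12 in the WT arrays, 10.32, 10.31, 10.02 and 10.02 in those without Ezh2 and 9.28, 9.67 and 10.11 in those without Eed. Eed-null replicates 1 and 2 were the lowest arrays, whereas replicate 3 lay among the others. Eed-null differed by -0.51 from WT, or 0.702-fold, with a 95% interval from -1.01 to -0.01, and by -0.48 from Ezh2-null (limma, SE 0.22 and 0.21, adjusted p = 0.455 and 0.521). Without Eed-null replicate 1 these differences were -0.31 and -0.28. Ezh2-null differed from WT by -0.03 (SE 0.21). The second Wdr5 probe set, 1448389_at, was uncorrelated with it (r = -0.03 over the 10 arrays) and differed by -0.18 (SE 0.25) in Eed-null against WT.

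Ash2l 1420616_at had the widest spread of the 25. The WT arrays gave 10.18, 8.87 and 10.57, the Ezh2-null arrays 10.12, 10.60, 10.01 and 9.77, and the Eed-null arrays 9.78, 10.29 and 9.66. WT replicate 2 lay below the other 9 arrays, among which the groups overlapped. Differences from WT were 0.25 (SE 0.37) and 0.04 (SE 0.40), and without WT replicate 2 they turned to -0.25 and -0.46 (limma, adjusted p = 1.00 and 0.536). Probe set 1420615_at read 8.71, 8.65 and 8.66 in WT and 8.75, 9.02 and 9.57 in Eed-null, with no overlap and a difference of 0.44 (limma, SE 0.23, adjusted p = 0.533). It was uncorrelated with the first (r = 0.02), so the probe sets of Ash2l gave different readings of the same gene.

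**Figure D3:**
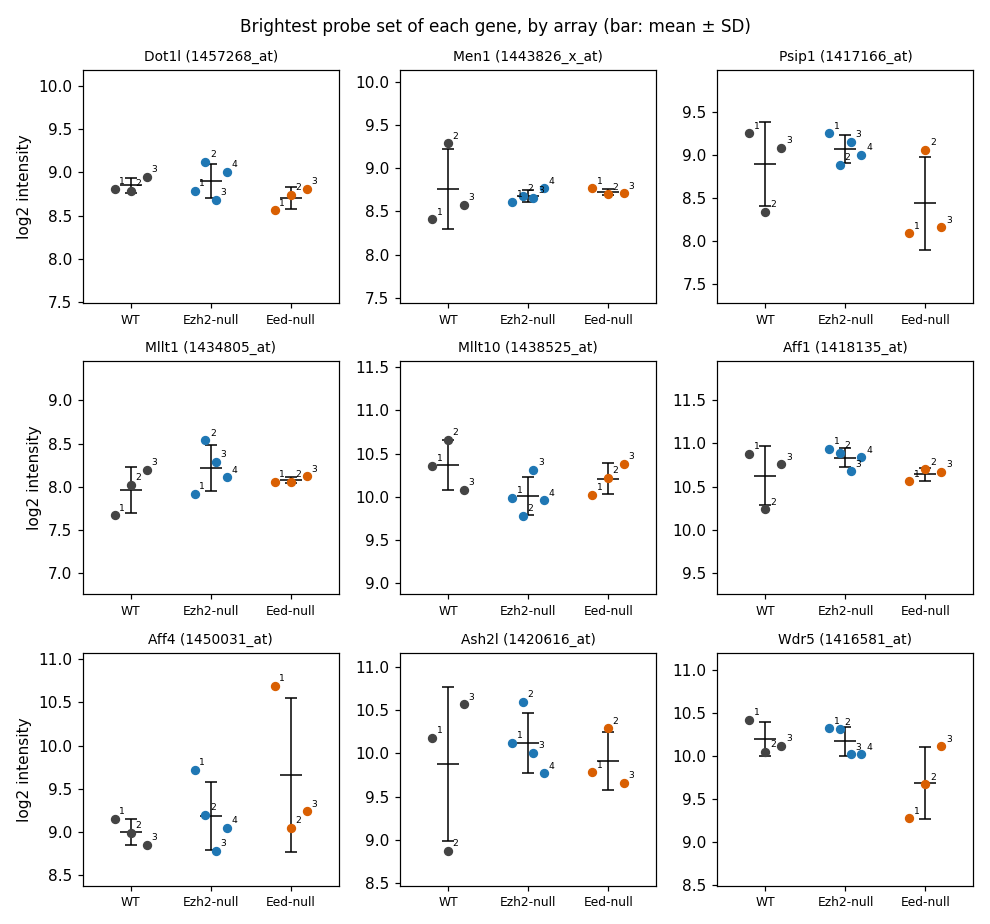
Log2 intensity of the brightest probe set of each gene by array, with replicate numbers and the mean ± SD of each group (3 WT, 4 Ezh2-null, 3 Eed-null). Each panel spans the same number of log2 units around its own centre. WT replicate 2 stands apart for Ash2l and Men1, and Eed-null replicate 1 for Aff4.

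Single arrays held many of the extreme values. WT replicate 2 was the highest or the lowest of the 10 arrays for 10 of the 25 probe sets and Eed-null replicate 1 for 11, beside 26.9% and 35.8% of all probe sets for these arrays. WT replicate 2 was low for all 3 Aff1 probe sets, Ash2l 1420616_at, Psip1 1460403_at and Mllt1 1421060_at and high for Dot1l 1439488_at, Men1 1443826_x_at, Mllt10 1438525_at and Aff4 1458959_at. Its mean level of Myc and nucleolar genes, 9.77, was equal to that of Eed-null replicate 1 and below those of the other 8 arrays, of which the highest was 11.04. The difference between the 3′ and 5′ Gapdh control probe sets, a sign of RNA quality, was 1.37 for WT replicate 2, 1.64 for Eed-null replicate 1 and 1.14 to 1.70 over all arrays. The part of these in the members' values was not tested. Without WT replicate 2, WT replicate 3 or Eed-null replicate 1, 0 of the 25 passed in any comparison (limma), with 0 to 3 at an unadjusted p under 0.05, beside 1258 to 4307 of all 37762 probe sets. The highest of both among these settings, 3 and 4307, came in Eed-null against WT without WT replicate 2. Leaving out Eed-null replicate 2 gave 4 and 5094 in the same comparison (limma), and 0 of the 25 passed.

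**Figure D4:**
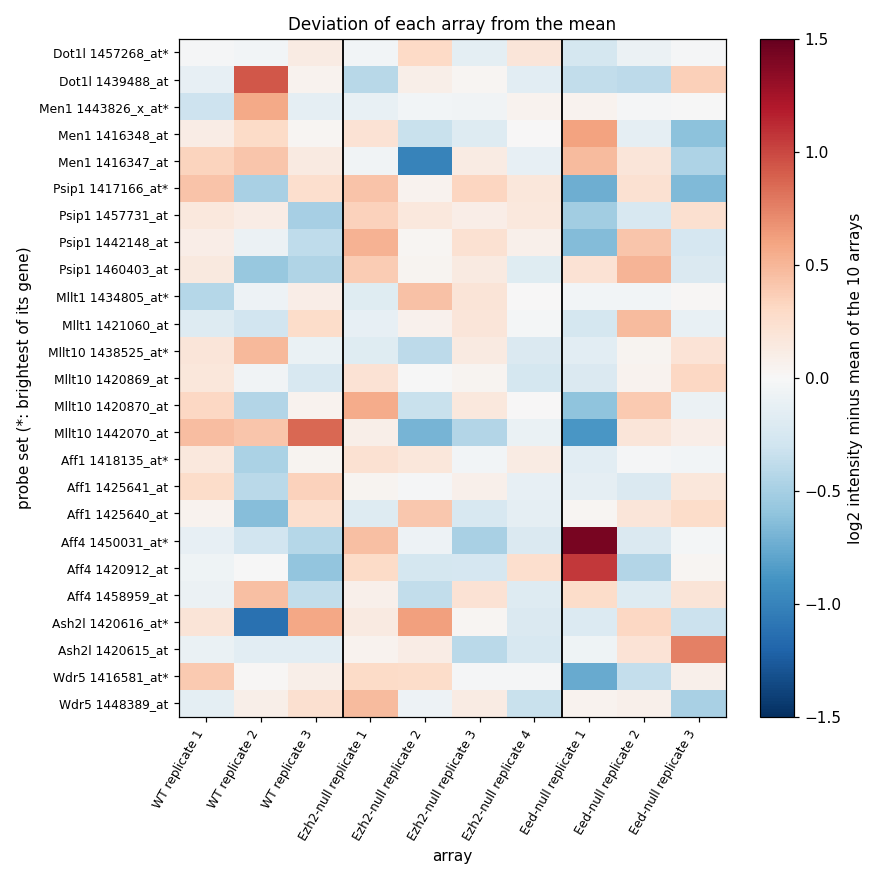
Deviation of each array from the mean of the 10 arrays, in log2 units, for the 25 probe sets (rows, asterisk for the brightest of a gene) and 10 arrays (columns, split by genotype). The strongest colours are in WT replicate 2, Ezh2-null replicate 2 and Eed-null replicate 1, and no row other than Mllt10 1442070_at separates WT from all null arrays.

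For each gene the other genes with the most similar profile over the 10 arrays were searched among 10281, by Pearson's r of the brightest probe sets. The first in rank was Surf6 for Ash2l (r = 0.978), Adamts10 for Mllt10 (r = 0.961), Wbp2 for Aff4 (r = 0.958) and Git2 for Wdr5 (r = 0.957). For Psip1 it was Pfkfb2 (r = 0.954), for Men1 Adprhl1 (r = 0.950), for Aff1 Cyth2 (r = 0.939), for Dot1l Eif1b (r = 0.921) and for Mllt1 Mical2 (r = 0.885). No member was among the first 3 of another member. The highest correlation between brightest probe sets of different members was 0.80, for Aff1 and Ash2l, and the lowest -0.86, for Aff1 and Men1. Both pairs share WT replicate 2 as an extreme array. With 10 arrays and 10281 candidates, such values describe these arrays only.

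The complexes around the members were read from lists written from general knowledge, with the brightest probe set for each gene. None of their genes passed in any comparison, beside 0.0243%, 0.117% and 0.0778% of all genes (limma, adjusted over all probe sets). The gene of the fusion partner, Mllt3 (AF9), differed by 0.04 (SE 0.20) in Ezh2-null and 0.02 (SE 0.21) in Eed-null for its brightest probe set, and whether the probes also read the retroviral AF9 is not given in the sources used here. Kmt2a differed by 0.08 (SE 0.24) and -0.39 (SE 0.26), and its second probe set by 0.18 (SE 0.19) and -0.40 (SE 0.20). Among 14 genes of the super elongation complex, the median difference was 0.11 in Ezh2-null and 0.03 in Eed-null against WT, beside -0.02 and 0.03 for all genes. Aff3, another Aff scaffold, read 8.96, 10.08 and 10.27 in Eed-null against 7.59 to 8.72 in WT and 7.69 to 8.41 in Ezh2-null. All 3 Eed-null arrays lay above the other 7. Absence of overlap in either direction was seen in 10.5% of all genes against Ezh2-null and 12.8% against WT, each comparison taken alone. The share of genes higher than both groups at once was not computed. The Aff3 differences of 1.62 from WT (SE 0.39) and 1.73 from Ezh2-null (SE 0.37) did not pass (limma, adjusted p = 0.209 and 0.197). Ccnt1, the cyclin partner of P-TEFb, differed by -0.53 (SE 0.19) and -0.71 (SE 0.21), and the elongation factor gene Ell2 by 0.63 (SE 0.67) and 1.74 (SE 0.72). Ell2 read 6.84, 5.01 and 6.06 in WT, below the median of the arrays. Eed-null arrays read 8.33, 8.13 and 6.68 and overlapped WT (limma, adjusted p = 0.431).

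Subunits of the MLL family methyltransferase complexes, a list of 14 that includes Wdr5, Ash2l, Men1 and Psip1, had 12 negative differences in Eed-null against WT. Their median was -0.39 beside 0.03 for all genes, and 0 of 14 passed (limma, with 3 at an unadjusted p under 0.05). Dpy30, which joins Ash2l in the core, reached at most 10.52 in Eed-null against 10.53 to 11.05 in WT and differed by -0.62 (limma, SE 0.26, adjusted p = 0.430). Paxip1 differed by -0.59 (SE 0.24) and Hcfc2 by -0.56 (SE 0.27). In Ezh2-null against WT 7 of 14 were positive. There Paxip1 differed by -0.53 (SE 0.23), Dpy30 by -0.14 (SE 0.24) and Hcfc2 by 0.23 (SE 0.25). Over the 3 comparisons in order, an unadjusted p under 0.05 was reached by 1, 3 and 2 of the 14 (limma), beside 3.57%, 9.94% and 8.69% of all genes, and the groups did not overlap for 1, 3 and 1, beside 5.0%, 12.8% and 10.5%. Without WT replicate 2, WT replicate 3 or Eed-null replicate 1 the Eed-null median of this list was -0.42, -0.38 and -0.27. The pausing and elongation factors gave a median of -0.34 with 1 of 9 positive in Eed-null against WT, and -0.40, -0.28 and -0.23 without those arrays. They were led by the histone chaperone gene Supt16 at -0.49 (limma, SE 0.15, adjusted p = 0.288). In Ezh2-null against WT Supt16 differed by -0.31 (SE 0.14), and the list had 4 of 9 positive and a median of -0.15. Beside these lists stood the Myc and nucleolar genes. In Eed-null against WT they had 3 of 24 positive and a median of -0.31, which became 0.13 without WT replicate 3. Granulocyte genes had 17 of 20 positive and a median of 0.45 in Eed-null, and 19 of 20 and 0.57 in Ezh2-null against WT. Without WT replicate 3 these became 11 of 20 and 0.02, and 16 of 20 and 0.11. The mean level of the monocyte markers was 10.39 to 11.29 over the WT arrays and 8.73 to 10.31 over the Eed-null arrays. Ezh2-null arrays lay at 9.73 to 10.73 and overlapped WT. Eed-null and WT did not overlap in this mean, nor in Ccr2 and Cd68, whereas they overlapped in Csf1r and Irf8. The same held for these genes in Ezh2-null. Its arrays read 9.0 to 9.67 for Ccr2 against 9.96 to 11.23 in WT. For Cd68 they read 9.43 to 10.49 against 10.52 to 11.05. Absence of overlap was seen in 12.8% of all genes in Eed-null against WT and in 5.0% in Ezh2-null against WT. Eed-null replicate 1 read 5.61 for Ccr2, against 9.04 and 8.62 in the other Eed-null arrays. The part of these genes in the medians of the complexes was not tested.

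The Paf1 elongation complex, which MLL fusions also contact, had a median of -0.04 over 6 genes in Eed-null against WT, with Ctr9 at -0.81 (SE 0.28) and Paf1 at -0.55 (SE 0.19). Medians in Eed-null against WT were 0.20 for 6 P-TEFb regulators and BET proteins, 0.02 for 5 genes of the Dot1l complex, -0.04 for 6 Kmt2 methyltransferases and -0.06 for 13 genes of the Kat7 complex and other cofactors. Without Eed-null replicate 1 the first of these was 0.01, with 3 of 6 positive, and the median of the Paf1 complex was -0.20. Of the BET proteins, Brd3 differed by 0.47 (SE 0.20) and Brd2 by -0.31 (SE 0.26) in Eed-null against WT. Among further cofactors, Jade2, a subunit of Kat7 acetyltransferase complexes, differed by 1.62 (limma, SE 0.44, adjusted p = 0.262), with WT replicate 2 at 6.13 and the other WT arrays at 7.97 and 8.10. In Ezh2-null against WT Jade2 differed by 1.01 (SE 0.41). For the downstream programme, 12 MLL-AF9 target genes had a median of -0.12 in Ezh2-null and -0.04 in Eed-null against WT. Hoxa9 ranged from 11.66 to 12.06 over the WT arrays, from 11.11 to 12.19 over the Ezh2-null arrays and from 11.14 to 11.82 over the Eed-null arrays, so the groups overlapped. Cdk6 differed by -0.50 (SE 0.18) and Pbx3 by 1.42 (SE 0.64) in Eed-null, and 0 of the 12 passed (limma, with 2 at an unadjusted p under 0.05, beside 9.94% of all genes). Pbx3 read 7.06, 8.13 and 10.04 in WT and 10.07, 10.29 and 9.13 in Eed-null, so these groups overlapped. In Ezh2-null against WT Cdk6 differed by -0.34 (SE 0.17) and Pbx3 by 0.99 (SE 0.60).

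**Figure D5:**
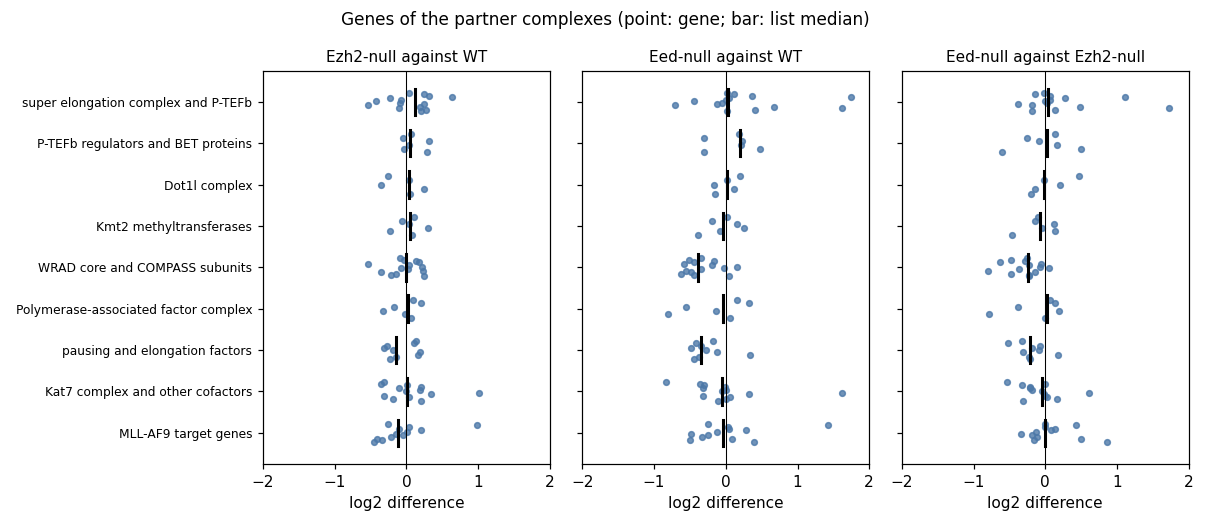
Log2 differences of the genes (points, brightest probe set) in 9 lists of partner complexes and targets, with the median of each list (bars), in the 3 comparisons. The median of the MLL family complex subunits lies at -0.39 and that of the pausing and elongation factors at -0.34 in Eed-null against WT, and no gene passed the test.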

How the data were processed

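Expression arrays of 10 sorted MLL-AF9 leukaemia samples were analysed. Intensity values were deposited on a linear scale after RMA, which the submitters' processing notes name without a version, from 6.88 upward. They were floored at 1 and log2 transformed here. Symbols came from the second deposited table, in which the authors had adjusted intensity values with ComBat, per the file header. That table served otherwise only as an alternative, and 9 columns of it from another series were not used. Control probe sets (64) and those with no (5820), several (1399) or date-like symbols (56) were left out. Through a RefSeq table, 3656 old symbols were updated.

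The 37762 probe sets were fitted with limma 3.58.1 in R 4.3.3, with 1 coefficient per genotype, all 10 arrays and eBayes with trend. Tests were two-sided, with Benjamini-Hochberg adjustment over all probe sets and a call at 0.05. Each SE is moderated by limma, and each SD is taken over the arrays within a group. The script was tested on simulated data. The number of arrays limits precision. The members and lists were chosen with earlier results of these data known. Named genes were all member probe sets, the 3 most similar genes for each member (the first is printed), Ezh2, Eed and up to 3 genes of each list with the smallest p. Hoxa9 was named outside that rule, for its role, and a further listed gene is not reported here. Alternatives were quantile normalization, 1 probe set per gene, gene means, a filter on the lowest 40%, an offset of 16, only the groups compared, the replicate block, no trend, a granulocyte covariate, the ComBat table and leaving out each array.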

Additional observations from a re-analysis of the deposited data

How the results depend on the processing

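Under every alternative, 0 of the member probe sets tested were called in the comparisons run (limma). Those tested numbered 9 in the settings with 1 value per gene, 24 without the lowest 40% and 25 otherwise. The ComBat table was used for Ezh2-null against WT only. Over 1351 alternative differences of the members, the lowest adjusted p was 0.265, and 87 had the opposite sign to the main value, all of them not called. For 34 of the 75 differences the sign was kept throughout, among them Mllt10 1442070_at against WT (-0.99 to -0.72 in Ezh2-null, -0.96 to -0.44 in Eed-null) and Wdr5 1416581_at in Eed-null against WT (-0.72 to -0.31). Counts over the whole array depended more on the setting. Calls in Ezh2-null against WT numbered 10, with 5 for 1 probe set per gene and for the granulocyte covariate, 6 without the lowest 40% and 2 to 12 when single arrays were left out. In Eed-null against WT they numbered 43, with 27 for 1 probe set per gene, 1 with only the groups compared and 16 to 53 when single arrays were left out. In Eed-null against Ezh2-null they numbered 25, with 16 for 1 probe set per gene, 39 with the granulocyte covariate and 13 to 51 when single arrays were left out. Fewer features are tested with 1 probe set per gene and without the lowest 40%, and fewer arrays with only the groups compared. For the others the cause was not tested. Deviations from the group means were correlated at r from -0.202 to 0.345 between arrays of different groups with the same replicate number. With different numbers r ran from -0.298 to 0.349, so the numbers do not show a pairing. The replicate block gave 0, 5 and 4 calls in the 3 comparisons, with 1215, 3570 and 2839 probe sets at an unadjusted p under 0.05 (limma).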
